A study of Homo sapiens with 2 samples.

Results

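The keratin gene clusters on human chromosomes 12 and 17 were examined for H3K4me3, the trimethylation of histone H3 at lysine 4, in HEC-1-B, an established line of human uterine adenocarcinoma cells. The members were the regions of both deposited peak lists that touched the type II cluster with KRT18, chr12:52560000-53350000, or the type I cluster, chr17:38800000-39785000, both in the hg19 build. The wild-type list held 13 such regions of 19782 on the assembled chromosomes, and the ZNF143KO list held 15 of 19647. Each list came from 1 chromatin immunoprecipitation (ChIP-seq) library, 1 from wild-type cells and 1 from cells of the genotype ZNF143KO, in which the zinc-finger transcription factor ZNF143 is knocked out. Both were cultured in the same medium and precipitated with the same antibody, and the sources used here do not say whether the knockout cells were 1 clone or several. With 1 library per genotype no difference below has a replicate check, and a lower signal could not be told apart as fewer cells with the mark or less mark per cell.

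Keratins are the intermediate filament proteins of epithelia, and a filament is built from pairs of a type I and a type II chain. Type II genes are clustered on chromosome 12 and type I genes on chromosome 17, with KRT18, a type I gene, at the edge of the type II cluster. Simple epithelia, including the glandular lining of the uterus, are known for KRT8, KRT18, KRT19 and KRT7, stratified epithelia for KRT5 with KRT14 in the basal layer and KRT1 with KRT10 above it, and hair for a set of its own. H3K4me3 gathers around the starts of active genes and at promoters rich in CpG, the dinucleotide that DNA methylation acts on.

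The order of the genes was taken from the RefSeq table of the GRCh38.p14 assembly. Its positions were not compared with the hg19 lists, so genes other than the 4 with a given hg19 start are named only by their order. The table lists 27 keratin genes in the order of the type II cluster and 28 in that of the type I cluster. Between KRT7 and KRT8 it has 23 keratin genes, with KRT5 after the first 10 of them. Before KRT19 it has 23 type I genes, of which KRT15 and KRT13 are the nearest to KRT19. After KRT19 come KRT9, KRT14, KRT16 and KRT17.

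Promoter sequences of RefSeq on GRCh38.p14, from 250 bases before to 50 after a gene's start, were found for 34 of the 55 keratin genes. They are shown for 3 genes from parts of the clusters described below, not as typical of those parts. KRT5 comes from the interior of the type II cluster (chr12:52520345-52520644, minus strand). KRT8 is given at an upstream start between the hg19 start used here and KRT18 (chr12:52926420-52926719, minus strand). KRT10 comes from the type I genes before KRT19 (chr17:40822565-40822864, minus strand). These 3 positions are GRCh38.p14 positions and cannot be set beside the hg19 positions of the regions. Sequences run 5′ to 3′ along the gene, and capitals mark each CpG.
KRT5: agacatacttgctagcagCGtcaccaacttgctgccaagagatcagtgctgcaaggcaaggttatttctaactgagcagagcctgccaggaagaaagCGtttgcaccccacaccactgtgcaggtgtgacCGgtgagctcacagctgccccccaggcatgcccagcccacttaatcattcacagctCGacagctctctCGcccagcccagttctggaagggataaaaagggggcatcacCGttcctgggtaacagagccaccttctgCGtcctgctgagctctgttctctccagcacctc
KRT8: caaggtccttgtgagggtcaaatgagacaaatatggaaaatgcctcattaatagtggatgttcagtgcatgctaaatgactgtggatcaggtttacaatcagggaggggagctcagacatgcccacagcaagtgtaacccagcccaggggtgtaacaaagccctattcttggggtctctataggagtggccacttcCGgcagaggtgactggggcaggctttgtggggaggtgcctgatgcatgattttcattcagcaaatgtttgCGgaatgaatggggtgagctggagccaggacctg
KRT10: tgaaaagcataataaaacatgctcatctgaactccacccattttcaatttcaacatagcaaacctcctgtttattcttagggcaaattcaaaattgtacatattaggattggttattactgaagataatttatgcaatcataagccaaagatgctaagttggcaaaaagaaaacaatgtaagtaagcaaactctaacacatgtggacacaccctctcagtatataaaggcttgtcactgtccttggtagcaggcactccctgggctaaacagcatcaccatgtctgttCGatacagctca

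The KRT5 promoter held 7 CpG, that of the upstream KRT8 start 2, and that of KRT10 1. KRT5 was high for its part, as the 13 promoters found between KRT7 and KRT8 had a median of 2 and a maximum of 8. Over the 34 keratin promoters the median was 2 CpG, with a range from 0 to 8, while the median over the 35116 promoters of the table was 14. The keratin promoters thus sat low in the table for CpG, and none reached the table's median. The motif TATAAA, searched on both strands, occurred in 21 of the 34 (61.8%), against 11.5% of all promoters in the table. KRT10 held it, and KRT5 and the upstream KRT8 start did not. The motif GGGCGG, also on both strands, occurred in 5 of the 34 (14.7%), against 45.0% of all promoters. For keratin genes with several entries the first in position was counted, while the 35116 promoters of the table include every entry of 27305 genes. These counts describe the letters in the windows only, and KRT7, KRT18 and KRT19 are not among the 34. Other genes named below are missing too, among them KRT1, KRT6A, KRT6B, KRT13, KRT14, KRT15, KRT16 and KRT17.

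The deposited lists give for each region a fold (column 7, the signal at the summit over a local background) and a −log10 q (column 9, the strength of evidence from the authors' peak caller). Percentiles are ranks within the region's own list, from low to high. The summit pileup is the number of fragments stacked at the summit, recovered from the deposited columns. Median summits held 197 fragments in the wild-type list and 355 in that of the knockout, and the lowest summits called held 7 and 11. The lowest local background, in fragments per base, came to 1.40 for the wild type and 3.25 for the knockout. By this measure the knockout library was the deeper, by a factor of 2.31.

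Both clusters were marked at a few places and bare over most of their length. The type II window held 6 wild-type and 9 knockout regions, or 7.59 and 11.4 per Mb, against 7.22 and 7.18 per Mb over chromosome 12. With regions within 1 kb of each other merged it held 6 wild-type and 7 knockout regions. With a −log10 q of at least 5 it held 6 wild-type and 5 knockout regions, so the order of the genotypes turned. The regions covered 0.639% of it in wild-type cells and 0.743% in the knockout, against 0.692% and 0.766% of the chromosome. The type I window held 7 wild-type and 6 knockout regions, or 7.11 and 6.09 per Mb. Chromosome 17 had 14.99 and 15.5 per Mb, so the type I window had fewer regions per Mb than its chromosome in both lists. Of the type I window 0.579% was covered in wild-type cells and 0.590% in the knockout, against 1.34% and 1.52% of chromosome 17.

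Most members were weak regions. By −log10 q, 4 of 13 wild-type and 5 of 15 knockout members lay above the median of their list, and 7 and 8 lay below the 25 percentile. Median widths were 533 bp in the wild type, with a range from 178 to 1928 bp, and 475 bp in the knockout, with a range from 177 to 1961 bp. The medians of the whole lists were 883 and 1003 bp.

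**Figure D1:**
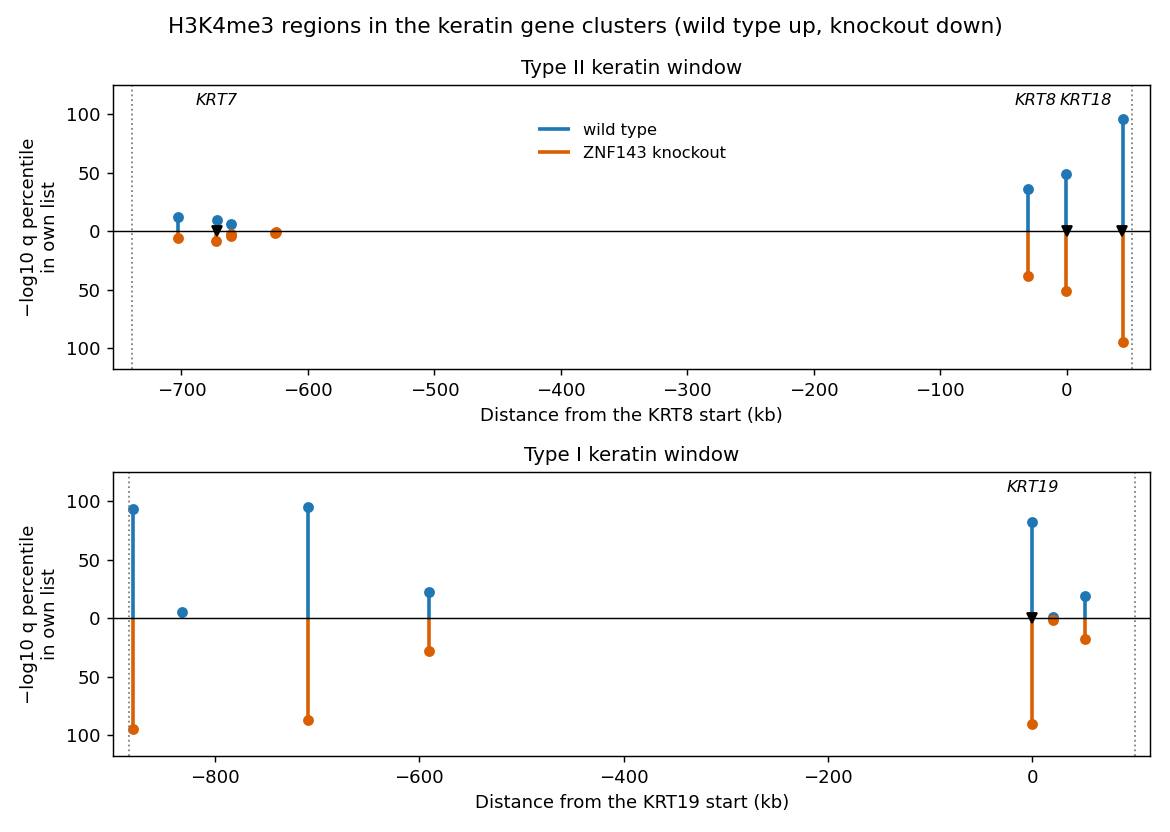
Regions of the wild-type list (upward stems) and the knockout list (downward stems) along the type II window and the type I window; the x axis is the distance in kb from the KRT8 or KRT19 start, the height is the −log10 q percentile in the region's own list, triangles mark the 4 given starts and dotted lines the window edges. A stretch of 594 kb in the type II window and one of 589 kb in the type I window hold no region of either list.

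The 4 simple epithelial keratins each had a region within 1 kb of the given start in both lists, but of very different strength. The type I partners KRT18 and KRT19 carried the strong regions, KRT8 an intermediate one and KRT7 a weak one. In the order of the −log10 q percentile, KRT18 stood at 95.6 in wild-type cells and 94.7 in the knockout, KRT19 at 82.2 and 90.5, KRT8 at 49.3 and 50.9, and KRT7 at 9.95 and 8.16. This order was the same in both lists, and also by summit pileup. By fold it was KRT18, KRT19, KRT8 and KRT7 as well, with percentiles of 75.8, 58.9, 40.3 and 20.8 in the wild type and 70.2, 59.7, 34.7 and 16.1 in the knockout.

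KRT18 encodes the type I chain that pairs with KRT8. Its region was at chr12:53342874-53344184 in the wild type and chr12:53342856-53344188 in the knockout. The summit pileup was 541 fragments in wild-type cells and 996 in the knockout, with folds of 15.7 and 14.3 and −log10 q values of 431 and 752. The region was 1311 bp wide in the wild type, at the 78.2 percentile of widths, and 1333 bp in the knockout, at the 71.3 percentile. KRT18 is read toward higher coordinates, and the region lay wholly past the given start, from 219 to 1529 bp in the wild type and from 201 to 1533 bp in the knockout. The summits were 427 and 407 bp past the start.

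KRT8 encodes the type II chain of the same filament and is read in the opposite direction. Its region was at chr12:53296856-53298783 in the wild type and chr12:53296848-53298808 in the knockout. It was the widest member in each list, with 1928 bp at the 97.2 percentile of widths and 1961 bp at the 95.5 percentile. The summit pileup was 203 fragments in wild-type cells and 427 in the knockout, with folds of 9.88 and 8.74. Beside KRT18, KRT8 thus combined a wider region with a lower summit in both lists. The region lay past the start, from 85 to 2012 bp in the wild type and from 60 to 2020 bp in the knockout. Its summits were 1371 and 1401 bp past the start, farther into the gene than at the other 3 keratins. The local background at this region came to 19.6 fragments per base for the wild type and 48.0 for the knockout. That background was higher at KRT18, with 33.5 and 68.8, and at KRT19, with 32.5 and 72.5. At KRT7 it was lower, with 1.40 and 3.25.

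KRT19 encodes a small type I keratin of simple epithelia. It was the only one of the 4 whose given start lay inside its region in either list. The region was at chr17:39683436-39684592 in the wild type and chr17:39683425-39684604 in the knockout, 1157 and 1180 bp wide. It ran from 92 bp before to 1064 bp past the start in the wild type and from 104 bp before to 1075 bp past it in the knockout, with the summit 149 and 120 bp past it. The summit pileup was 428 fragments in wild-type cells and 930 in the knockout, with folds of 12.8 and 12.7 and −log10 q values of 306 and 657.

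KRT7 encodes a type II keratin of glandular and ductal epithelia. Its region was weak in both lists. The region was at chr12:52626414-52626945 in the wild type and chr12:52626337-52626811 in the knockout, 532 and 475 bp wide. The summit held 14 fragments in wild-type cells and 20 in the knockout, with folds of 6.24 and 4.94 and −log10 q values of 8.12 and 8.02. The lowest summits called anywhere held 7 and 11 fragments. The region lay before the start and did not reach it, from 540 to 9 bp before it in the wild type and from 617 to 143 bp before it in the knockout. In this KRT7 differed from the other 3, whose regions lay at or past the start.

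**Figure D2:**
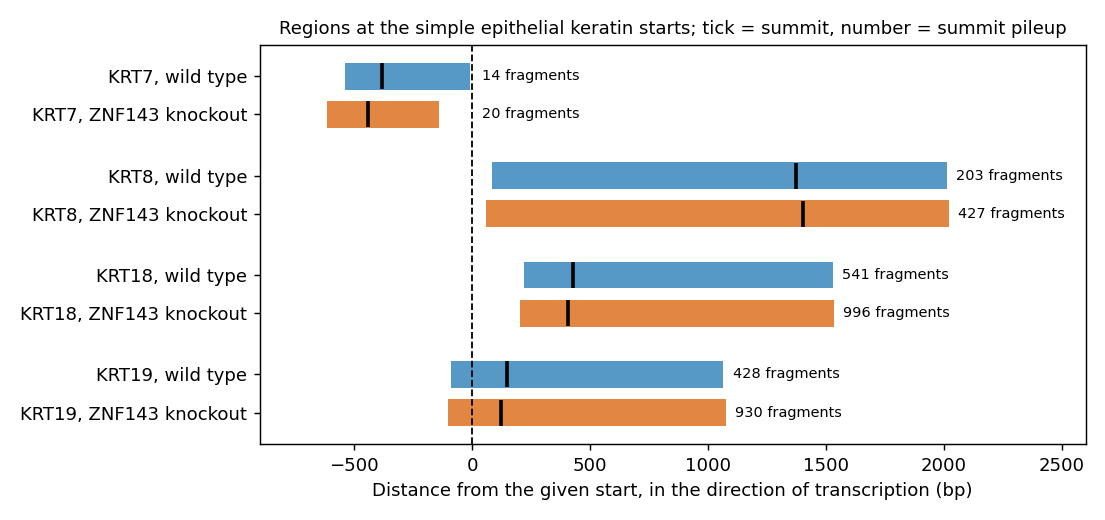
Regions at the KRT7, KRT8, KRT18 and KRT19 starts in the wild type (blue) and the knockout (orange), placed by their distance in bp from the given start (dashed line) along the direction of transcription; black ticks are summits and the printed numbers summit pileups in fragments. The KRT7 regions lie before the start with 14 and 20 fragments, and the KRT8 regions extend to 2012 and 2020 bp past it with summits at 1371 and 1401 bp.

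Around KRT7 there were further weak regions in both lists. The first lay before KRT7, with its wild-type summit 30.6 kb from the start, at chr12:52596073-52596495 in the wild type and chr12:52596267-52596507 in the knockout. Its summit held 16 fragments in wild-type cells and 18 in the knockout, at −log10 q percentiles of 12.6 and 6.05. The next lay past the start, with its wild-type summit 11.3 kb from it, at chr12:52638159-52638418 and chr12:52638177-52638422, with 12 and 15 fragments and −log10 q percentiles of 6.56 and 2.70. The knockout list had 3 more regions on this side, at chr12:52637770-52637996 with 16 fragments, chr12:52672654-52672830 with 14 and chr12:52673722-52674064 with 13. Their −log10 q percentiles were 3.77, 1.74 and 0.835, so they were among the weakest regions called.

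The interior of the type II cluster was bare. The KRT7 and KRT8 starts lie 672 kb apart, and no region of either list was found over 594 kb between them, from chr12:52674065 to chr12:53267639. This was 88.3% of the interval that holds, in RefSeq order, the 23 keratin genes between KRT7 and KRT8. Among them are the basal keratin KRT5, the wound and hyperproliferation keratins KRT6A and KRT6B, the spinous keratin KRT1, the oral keratin KRT4 and hair keratins such as KRT85. KRT80, which opens the order, lies before KRT7 and outside this interval. The bare stretch began 47.1 kb past the KRT7 start and ended 31.2 kb before the KRT8 start, so genes next to either end, such as KRT86 and KRT81 beside KRT7 or KRT79 and KRT78 beside KRT8, were not placed inside or outside it. In the wild type by itself the stretch was 629 kb, longer than 95.2% of the 965 stretches between neighbouring regions on chromosome 12. In the knockout it was 594 kb, longer than 94.8% of 959. The median stretch on the chromosome was 40.1 kb in the wild type and 44.3 kb in the knockout.

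A single narrow region stood between that stretch and KRT8. It was at chr12:53267677-53268274 in the wild type and chr12:53267640-53268509 in the knockout, with the wild-type summit 30.9 kb from the KRT8 start. Its fold of 17.9 in each list was the highest of all members, at the 85.8 and 87.9 percentiles. Its summit pileup was much lower in rank, with 62 fragments at the 27.0 percentile in the wild type and 127 at the 30.3 percentile in the knockout. By −log10 q it stood at 35.9 and 37.9. It was 598 bp wide in the wild type and 870 bp in the knockout, the largest ratio of widths among the members at 1.45. The given hg19 starts do not tie it to a gene.

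Between the KRT8 and KRT18 starts, 43.8 kb apart, neither list had a region, and RefSeq has no other keratin gene there. The upstream KRT8 start whose sequence is given above falls in this interval by order, since in the RefSeq table it lies nearer to KRT18 than the start used here does. Its hg19 distance from the KRT8 and KRT18 regions was not measured.

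The type I cluster had strong regions before its interior and at KRT19. The first, at chr17:38803371-38804890 in the wild type and chr17:38803298-38804977 in the knockout, lay 881 kb from KRT19 and close to the edge of the window. Its summit held 531 fragments in wild-type cells and 1053 in the knockout, at −log10 q percentiles of 93.3 and 94.5. In RefSeq order the cluster begins with KRT222, and the gene before it is SMARCE1, a chromatin remodelling subunit. Whether this region belongs to a keratin gene was not settled.

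The next strong region, at chr17:38974476-38976254 in the wild type and chr17:38974443-38976294 in the knockout, lay 709 kb from KRT19. It was 1779 and 1852 bp wide, at the 94.9 and 93.4 percentiles of widths. Its summit held 545 fragments in the wild type, the most of any wild-type member, and 890 in the knockout. By −log10 q it stood at the 94.98 percentile in the wild type and the 87.0 percentile in the knockout. A weaker region lay 591 kb from KRT19, at chr17:39093429-39093961 and chr17:39093517-39094084, with 26 and 65 fragments and −log10 q percentiles of 22.1 and 28.2. The wild-type list had 1 more region among these, at chr17:38852393-38852570, with 11 fragments at the 4.79 percentile and a width of 178 bp.

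From the region at 591 kb to the KRT19 region, 589 kb were without a region in each list. The bare stretch in both lists ran from chr17:39094085 to chr17:39683424 and made up 59.8% of the type I window. It was longer than 98.4% of the 1215 stretches between neighbouring wild-type regions on chromosome 17 and than 98.9% of 1254 in the knockout, where the median stretches were 23.4 kb in each. The nearest keratin genes on this side of KRT19 are KRT15, a basal keratin, and KRT13, a keratin of internal stratified epithelia. Farther along the order come the hair keratins from KRT36 to KRT33A and, between KRT33A and KRT40, 34 genes of keratin-associated proteins, which form the matrix of hair. The far end of the stretch was not assigned to a gene.

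On the other side of KRT19, the 101 kb up to the window's end held 2 weak regions in each list. At chr17:39704843-39705156 and chr17:39704960-39705194, with the wild-type summit 20.5 kb from the KRT19 start, the summit held 9 fragments in wild-type cells and 14 in the knockout, at −log10 q percentiles of 1.06 and 1.74. At chr17:39735689-39735913 and chr17:39735633-39735926, with the wild-type summit 51.3 kb from it, the summit held 22 and 35 fragments, at percentiles of 18.8 and 18.2. No region above the 25 percentile by −log10 q was therefore found on the side where KRT9, KRT14, KRT16 and KRT17 follow KRT19, up to the window's edge. KRT14 pairs with KRT5 in basal cells, and KRT16 and KRT17 are keratins of hair follicles and wounded skin.

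The edges of the windows decide which regions are members. The nearest regions outside the type II window lay 13.4 kb before it, with 36 fragments in wild-type cells and 51 in the knockout, and 49.3 kb after it, with 382 and 752 fragments. Outside the type I window they lay 82.4 kb before it in the wild type and 82.5 kb in the knockout, with 88 and 95 fragments, and 19.4 kb after it, with 11 and 20 fragments. The members just inside were the weak region before KRT7, the KRT18 region, the region at 881 kb from KRT19 and the weak region 51.3 kb past it.

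**Figure D3:**
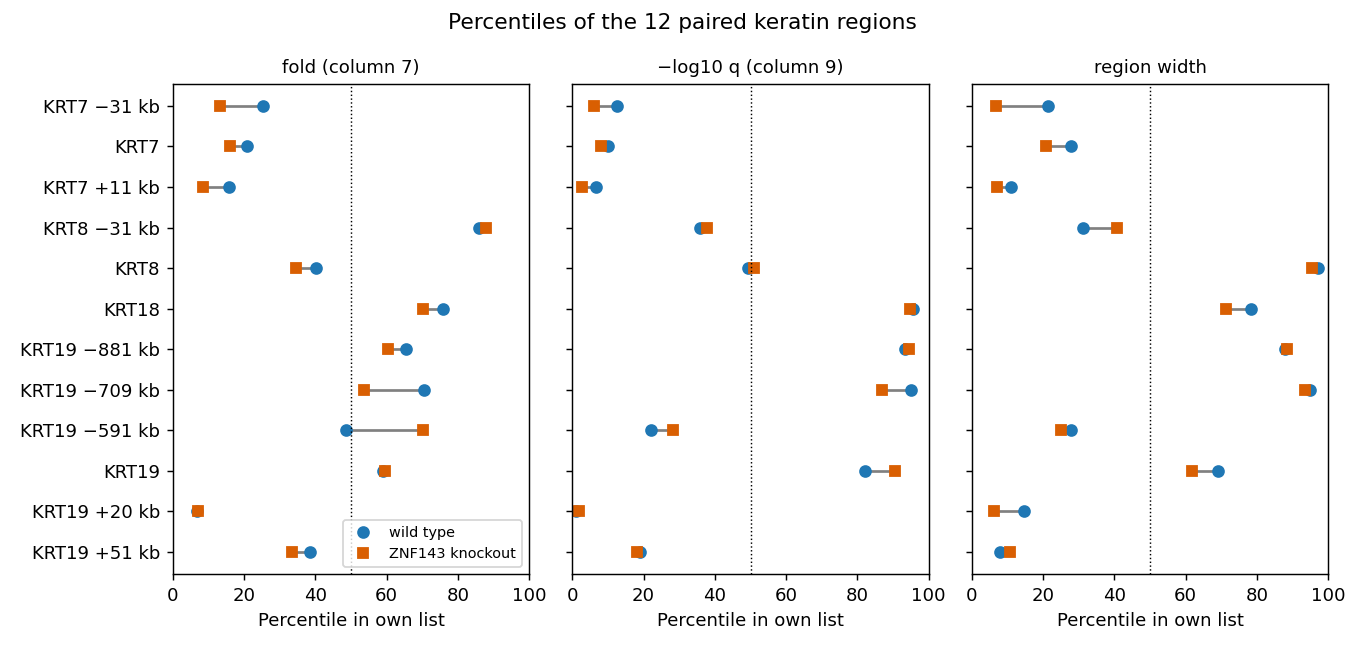
Percentiles of the 12 paired regions in the wild-type list (circles) and the knockout list (squares) by fold, by −log10 q and by width, in chromosome order from top to bottom; rows that name no gene alone give the distance in kb from the nearest given start, minus for lower coordinates. KRT18 and KRT19 lie above the 80 percentile by −log10 q in both lists, and KRT7 lies below the 10 percentile.

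The question of the comparison was which of these regions differed between wild-type and ZNF143KO cells. Of the members, 12 of 13 in the wild type overlapped a knockout region (92.3%), and 12 of 15 in the knockout overlapped a wild-type region (80.0%). Over the whole lists 5.53% of wild-type and 9.67% of knockout regions had no partner. With 13 and 15 members the intervals are too wide to read a difference, or its absence, from these shares. All 4 unshared members were below the 5 percentile of their list by −log10 q. The 12 shared regions formed 12 pairs, each with a single partner, and these were compared with the 16501 such pairs of the genome.

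The knockout region was the wider in 8 of the 12 pairs, against 82.2% of all pairs. The median ratio of widths was 1.02, with a range from 0.570 to 1.45, against 1.06 over all pairs. At KRT8, KRT18 and KRT19 the ratio was 1.02, and the knockout and wild-type regions had 98.3%, 98.3% and 98.1% of their joint length in common. At KRT7 the knockout region was the narrower, with a ratio of 0.893 and 65.4% in common. The median over all pairs was 91.1%. In coordinates, the summits at KRT7, KRT8, KRT18 and KRT19 moved by −59, −30, −20 and 29 bp in the knockout. The median absolute shift over all pairs was 18 bp.

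Pileups were compared as the log2 of the knockout value over the wild-type value, less the median of all pairs. This removes the typical ratio of 1.86 between the summits of the libraries, which is not the 2.31 of the background rates and would include any change common to all regions. Intervals below are 95% intervals from the fragment counts of the 2 summits and cover counting error only. At KRT18 the centred log2 ratio was −0.01 (−0.17 to 0.14). At KRT8 it was 0.18 (−0.07 to 0.43), and at KRT7 −0.38 (−1.44 to 0.72). At KRT19 it was 0.23 (0.06 to 0.39), at the 78.4 percentile of all pairs, and the median of chromosome 17 was itself 0.12. None of the 4 starts reached the fold of 1.5 in either direction. Scaled by the background rates in place of the median of all pairs, the values at KRT8 and KRT19 became −0.14 and −0.09, that at KRT18 −0.33 and that at KRT7 −0.70, which is past 1.5-fold lower. This scaling moves the median of all pairs to −0.32, so relative to that median the 4 values are those given first.

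Over the 12 pairs the median was −0.10, and 7 lay below 0. A fold of at least 1.5 lower in the knockout was met by 1 pair, and this background was 6.45% of all pairs. No pair was at least 1.5-fold higher, where the background was 7.11%. A count of 1 in 12 is near the background. The pair past the fold was the weak region before KRT7, with a log2 ratio of −0.72 (−1.78 to 0.34) from 16 and 18 fragments, so its interval included 0. Centred on the pairs of its chromosome, the number of pairs 1.5-fold lower was 2, the added pair being the weak region 11.3 kb past the KRT7 start. Scaled by the background rates it was 3, with KRT7 itself added. The share of all pairs past the fold under these settings is not given here, so these counts are not set beside a background. Strong and weak members differed in spread. The 6 pairs with under 30 wild-type fragments ranged from −0.72 to 0.43, and 5 of them lay below 0, while the 6 pairs with at least 30 ranged from −0.19 to 0.23, and 2 of them lay below 0. Among all pairs under 30 fragments, 16.4% were at least 1.5-fold lower and 20.8% at least 1.5-fold higher, and among the others 4.81% and 4.86%. The limit of 30 was chosen after the values were seen.

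**Figure D4:**
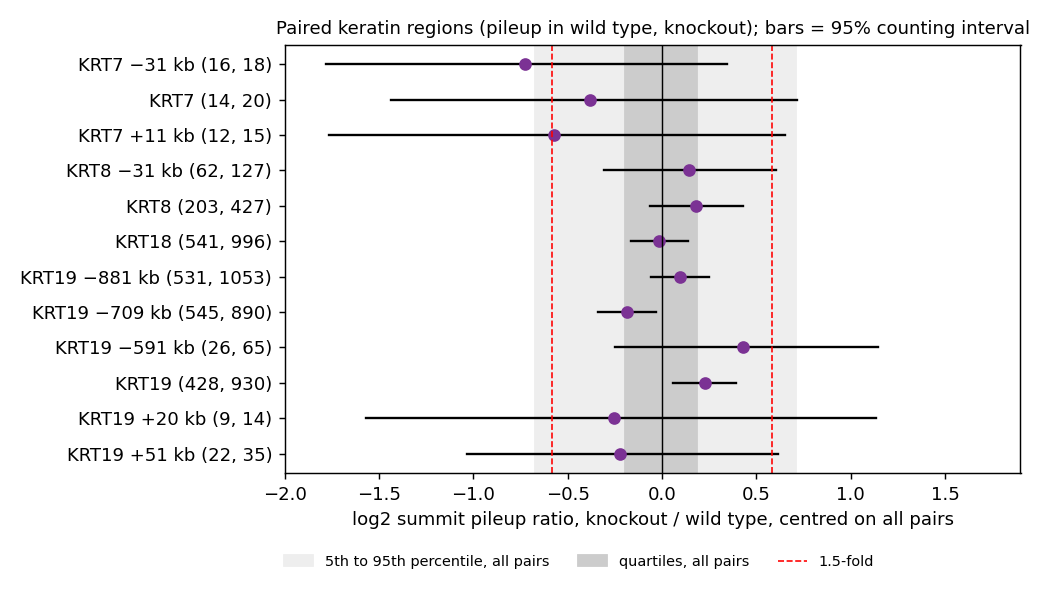
Log2 ratio of summit pileups, knockout over wild type, centred on the median of all 16501 pairs, for the 12 paired regions (points) with 95% counting intervals (bars); grey bands show the quartiles and the 5th to 95th percentiles of all pairs and red dashed lines a fold of 1.5. Rows give the pileups in both libraries, and the weak regions near KRT7 have wide intervals that include 0.

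The members that moved most in rank by fold were both in the type I window. The region 709 kb from KRT19 went from the 70.6 percentile in the wild type to 53.8 in the knockout, a shift of −16.8 points that was lower than in all but 3.44% of the pairs. Its centred log2 pileup ratio was −0.19 (−0.34 to −0.03), within the 1.5-fold limits, and its shift by −log10 q was −7.94 points. Centred on the pairs of chromosome 17 the ratio was −0.30, and scaled by the background rates it was −0.50, both within the same limits. The region 591 kb from KRT19 went from 48.5 to 70.1, a shift of 21.6 points at the 97.4 percentile of all pairs. Its log2 ratio was 0.43 (−0.25 to 1.14) from 26 and 65 fragments, and its shift by −log10 q was 6.05 points. Centred on the pairs of chromosome 17 its ratio was 0.31, and scaled by the background rates it was 0.11. Both lie on the same side of KRT19 and moved in opposite directions.

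By fold, 8 of the 12 members ranked lower in the knockout and 4 higher. Their median shift was −5.07 points, against −0.007 over all pairs. The median absolute shift was 5.36 points against 3.89 over all pairs. By −log10 q, 6 members ranked higher and 6 lower, and the median shift was 0.01 points. KRT18 shifted by −5.62 points by fold and by −0.91 by −log10 q. KRT8 shifted by −5.58 points by fold and by 1.59 by −log10 q, so its direction turned with the column used. KRT19 shifted by 0.76 and 8.25 points, and KRT7 by −4.66 and −1.79.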

How the data were processed

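H3K4me3 ChIP-seq was analysed from 1 wild-type and 1 ZNF143KO library, grouped by the labelled genotype. The submitters' processing notes name Bowtie2, MACS2, SAMtools 1.12, deepTools and the builds GRCh37 and hg19; the control library is not given in the sources used here. Each deposited list has the 10 columns of a narrowPeak file, and peaks were called per library, as the separate name prefixes show. The authors' fold (column 7) is a ratio of summit signal to local background. The authors' columns 8 and 9 hold −log10 p and −log10 q. The deposited score column was not used. No scaling between lists is stated, so values were ranked within a list.

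The members and gene lists were chosen with earlier results of these data known. Named were the 4 simple epithelial keratins, and every other member by position. Strands of KRT7, KRT18 and KRT19 are textbook knowledge, and the given starts are single positions. Summit pileups were solved from the fold and the Poisson p (largest relative error 2.67e-05). The step recovered 100% of 16993 simulated wild-type and 16591 simulated knockout values. These values were simulated with the same formulas that the step inverts, so their recovery checks the solving only. Regions off the assembled chromosomes (785 and 862) were left out. Shared meant an overlap of at least 1 bp. No test between genotypes was possible with 1 library each. Total reads were not analysed here. Computations used scipy 1.17.1 with pandas 2.3.3 and numpy 2.4.6 under Python 3.11.15, and figures matplotlib 3.10.9.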

Additional observations from a re-analysis of the deposited data

How the results depend on the processing

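No paired analysis was possible because there is a single library of each genotype, which also leaves no replicate to leave out. Widening the windows by 100 kb on each side gave 15 wild-type and 19 knockout regions in the type II window and 14 and 13 in the type I window. A −log10 q of at least 5 left 5 of the 9 knockout regions of the type II window. Of the members left, 100% were shared in the knockout and 83.3% in the wild type, against 80.0% and 92.3% before. The share over the whole lists at this limit is not given here. When the given start had to lie inside a region, 1 of the 4 starts counted in each list. Pairs at least 1.5-fold lower in the knockout numbered 2 when centred on the same chromosome and 3 when scaled by the background rate. The share of all pairs past the fold under these settings is not given here. The median log2 ratio became −0.42 under that scaling, which moves the median of all pairs to −0.32. The median rank shift by fold reversed to 0.0086 points by −log10 q and to 0.12 points by pileup, and the cause was not tested. The longest bare stretches stayed within 1.5 times their length under each alternative run. Depth limits the bare stretches: a summit below 7 fragments in the wild type or 11 in the knockout was not called, so a bare stretch does not show that the mark was absent.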
